A study of Mus musculus with 24 samples.

Results

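The immediate early response genes are followed here in mouse liver as a set of 10 genes given by symbol: *Fos*, *Jun*, *Junb*, *Atf3*, *Egr1*, *Klf6*, *Myc*, *Ier2*, *Ier3* and *Btg2*. Members were found as the rows that carry exactly these names, and all 10 were present among the 24443 genes of each of 4 deposited tables. Total liver RNA of male C57BL/6 mice was made into ribosome-depleted, stranded sequencing libraries. Values were at hand for 20 libraries in 5 groups of 4, which form 4 comparisons. Fasted DKO mice carried Ppara-/- in the whole body together with floxed Bcl6 and the Alb-cre transgene, and were fasted overnight. Fasted PparaKO mice were Ppara-/-, with no floxed Bcl6 allele in their label, and had the same fast. Fed Bcl6LKO mice were Bcl6 fl/fl with Alb-Cre, in which the Albumin promoter drives Cre in hepatocytes, and ate freely. Fasted WT and fed WT mice were Bcl6 fl/fl without Cre, so the animals called WT carried the floxed allele. Ages are not given in the sources used here. Another 4 samples, from fasted Bcl6LKO mice, were not analysed here.

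Immediate early genes are transcribed within minutes of a stimulus such as a growth factor, a cytokine or cellular stress, through factors already present in the cell, and do not wait for new protein. Most encode transcription factors, their mRNAs are short-lived, and a burst of them precedes later changes in gene expression. In liver they are known for their surge after partial hepatectomy and in injury, inflammation and tissue handling.

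The values are on the log2 scale on which they were deposited, 1 value per gene and library, and a difference of 1 is a doubling. Judged from the values alone, low values on it appear to be drawn towards the gene's mean. Differences of low genes such as *Fos*, *Ier3* and *Atf3* are then likely understated. Each table was scaled by itself, so groups were compared only within a table. Read counts were not at hand. Library depth is therefore unknown and no counting error could be given. Groups were compared with limma over all genes above a mean of 4 in the table, which kept 11910 genes in the fasting table, 12115 in that of fed Bcl6LKO livers, 11932 in that of fasted PparaKO livers and 12004 in that of fasted DKO livers. A gene passed the test at a Benjamini-Hochberg adjusted p under 0.05 over all of them. The labels number the samples of a group as replicates and do not say that each was its own animal. The p-values therefore speak only to the spread among these libraries. Because these are pieces of whole liver, fewer cells of a type and less RNA per cell cannot be told apart.

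*Bcl6*, the gene deleted in hepatocytes, lay between 7.62 and 8.54 in fed Bcl6LKO livers and between 8.02 and 10.49 in fed WT livers. It lay between 7.32 and 8.13 in fasted DKO livers and between 6.95 and 9.39 in fasted WT livers. The groups overlapped in both tables, and the value counts all exons of the gene, not the deleted part alone. *Ppara* lay between 12.12 and 12.29 in fasted PparaKO livers against 13.07 to 13.32 in fasted WT livers, and between 10.73 and 11.73 in fasted DKO livers against 12.99 to 13.26 in fasted WT livers, with no overlap. Over all tested genes, each library correlated with the others of its group at a mean r of 0.988 to 0.997, and the lowest values were those of the 4 fasted DKO libraries, at 0.988 to 0.992.

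The level of the members differed widely. Per kilobase of the longest annotated transcript, *Junb*, a subunit of the AP-1 transcription factor, stood first in both groups of the fasting table, at 8.28 ± 0.34 in fasted WT livers and 8.05 ± 0.44 in fed WT livers (log2 level per kilobase, SD, n = 4). *Ier2*, a nuclear protein gene, came next at 7.27 ± 0.064 in fasted WT livers and 7.17 ± 0.19 in fed WT livers. *Btg2*, *Jun*, *Myc*, *Egr1* and *Klf6* followed between 6.54 and 5.37 in fasted WT livers and between 6.57 and 5.34 in fed WT livers, and neighbours in this order mostly lay within 1 SD of each other. *Fos*, *Atf3* and *Ier3* were the lowest, at 3.42, 2.98 and 2.89 per kilobase in fasted WT livers and 3.49, 3.11 and 2.87 in fed WT livers. *Ier3* did not pass the filter on low values in the fasting and PparaKO tables, so 9 of the 10 members were tested there and all 10 in the Bcl6LKO and DKO tables. *Ier3* passed in those 2 tables with means of 4.31 and 3.82 in fed Bcl6LKO and fed WT livers, and of 5.62 and 4.25 in fasted DKO and fasted WT livers. In the Bcl6LKO table it entered the test only through the fed Bcl6LKO livers, as its fed WT mean was below the filter. In the DKO table its fasted WT mean was above the filter. The same fasted WT livers were below the filter in the fasting and PparaKO tables, at 3.06 and 3.55.

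**Figure D1:**
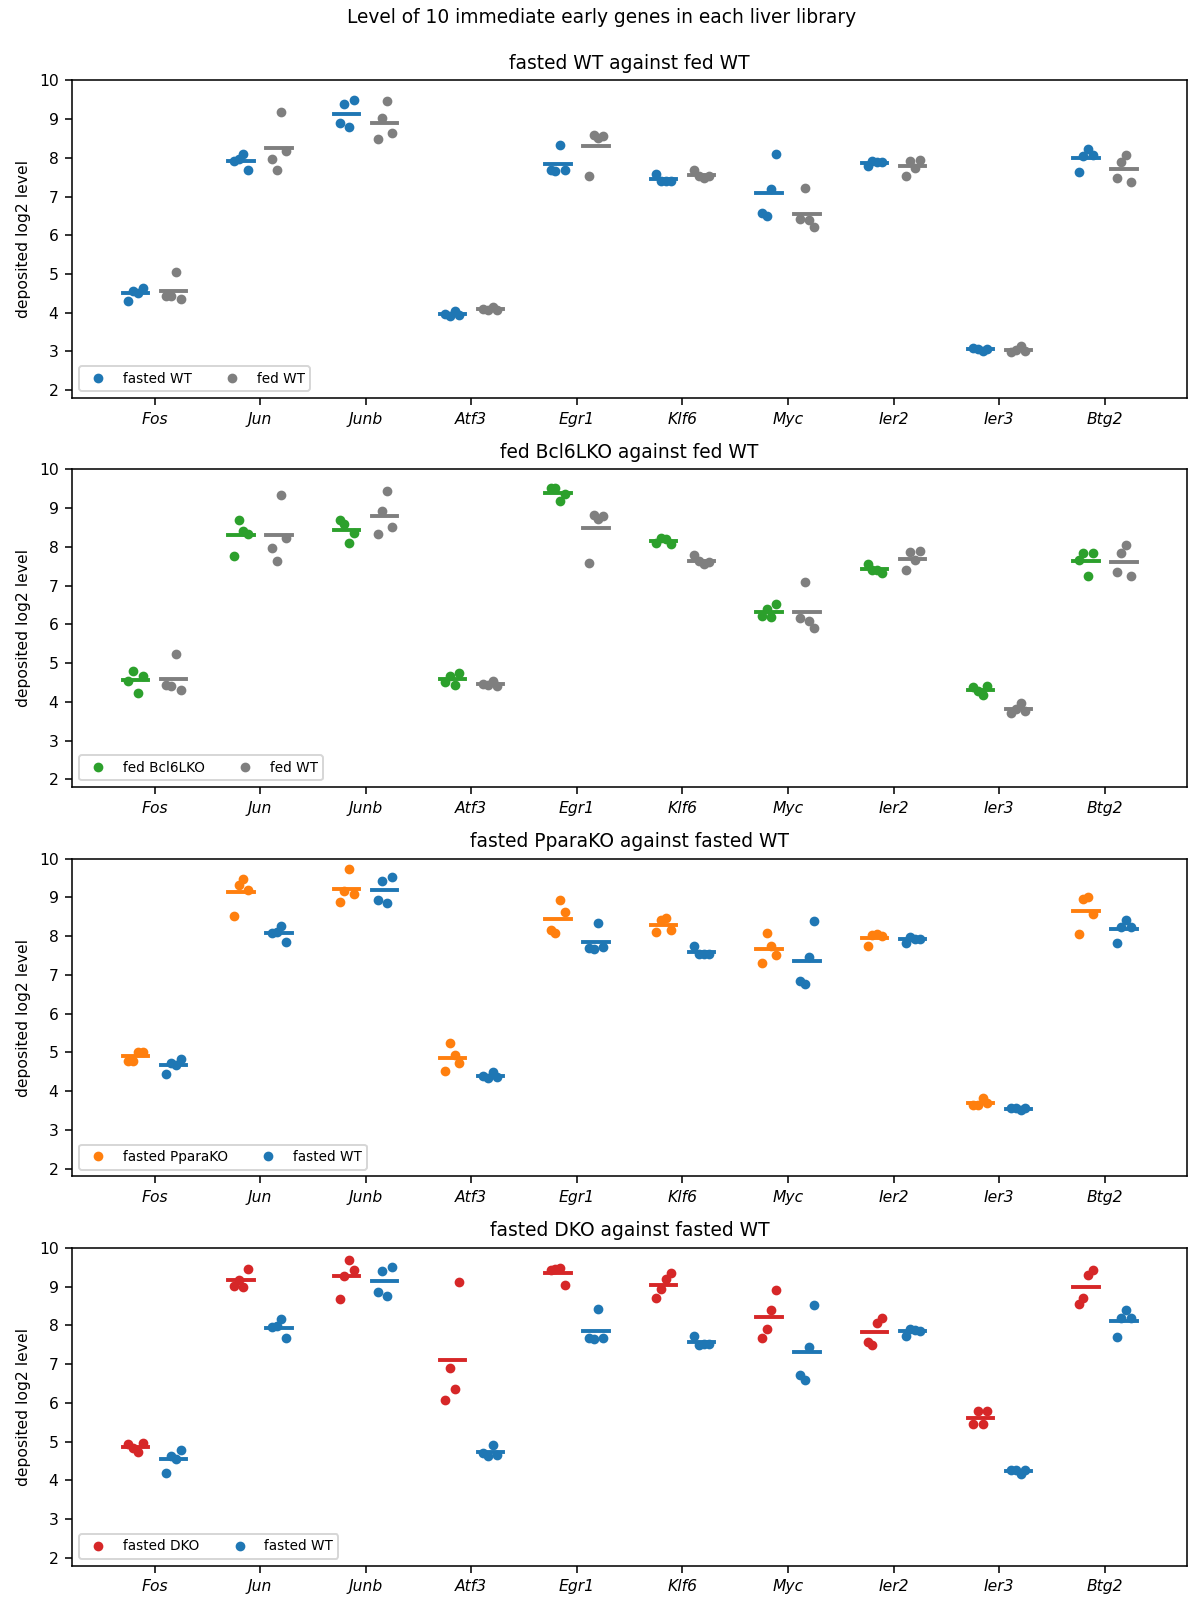
Deposited log2 level (vertical axis) of the 10 immediate early genes in each liver library, 1 panel per table, with points for libraries and short lines for group means (n = 4). The fasted DKO points of Klf6, Jun, Egr1, Ier3, Atf3 and Btg2 all lie above the fasted WT points, and the fasted WT and fed WT points of every gene but Atf3 overlap.

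Of the promoter windows in RefSeq, from 250 bases before to 50 after the start, 7 of the 10 members had an entry. Those of *Egr1*, *Ier2* and *Myc* had none. The windows were searched on both strands for 6 short elements through which immediate early genes are known to be switched on or repressed: the cAMP response element TGACGTCA, the AP-1 site TGACTCA, the AP-1 site TGACATCA known from *Jun*, the variant TGACGTTT known from *Fos*, the C/EBP-ATF element TTGCATCA and the BCL6 core TTCCTAGAA. Over all 32851 promoters, 1.79% held the first, 5.20% the second, 3.62% the third, 0.39% the fourth, 0.895% the fifth and 0.411% the last. Matches fell in 4 member windows, and each is shown because its gene passed the test in at least 1 of the comparisons below. The stretches are 68 bases each from GRCm38.p6, written 5′ to 3′ on the gene's strand, with the matched element in capitals.
Btg2: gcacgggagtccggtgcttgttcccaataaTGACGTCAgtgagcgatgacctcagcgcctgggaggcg
Atf3: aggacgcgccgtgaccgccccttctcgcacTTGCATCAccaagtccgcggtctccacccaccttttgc
Jun: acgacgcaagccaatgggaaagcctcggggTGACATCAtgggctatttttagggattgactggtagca
Klf6: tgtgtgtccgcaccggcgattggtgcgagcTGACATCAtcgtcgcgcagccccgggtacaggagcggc
The *Btg2* stretch is chr1:134079284-134079351 on the minus strand, and its element starts 166 bases before the gene's start. The *Atf3* stretch is chr1:191183406-191183473 on the minus strand, with the element 110 bases before the start. The *Jun* stretch, chr4:95052230-95052297 on the minus strand, has the element 45 bases before the start, and the *Klf6* stretch, chr13:5861340-5861407 on the plus strand, has it 119 bases before. *Jun* and *Klf6* thus share the same 8 letters upstream. A match describes letters only, and no link of a match to a difference below was tested. The other 3 windows, those of *Fos*, *Junb* and *Ier3*, held none of the 6 elements, which says nothing of the factors that act on them.

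Fasting overnight was the first comparison, and no member passed the test. With limma, 0 of 9 members were higher and 0 of 9 lower in fasted WT than in fed WT livers, where 11.9% of all tested genes were higher and 11.0% lower. At an unadjusted p under 0.05 the counts were 0 higher and 1 lower, and the exact permutation test gave the same counts. For the unadjusted limma counts, here and below, the share of all tested genes was not computed. The median difference of the 9 members was -0.068, against -0.0025 over all tested genes.

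The member that came nearest was *Atf3*, a stress-responsive member of the ATF/CREB family. It was 3.97, 3.93, 4.06 and 3.93 in fasted WT livers and 4.10, 4.08, 4.15 and 4.06 in fed WT livers. The groups did not overlap, but the difference was -0.13 ± 0.045 (SE) and missed the threshold (limma adjusted p = 0.0738, exact permutation p = 0.0286, the smallest that 4 against 4 allows). It was the 1 member of 9 tested whose groups were apart, while 26.3% of all tested genes were. *Atf3* entered the test there only through the fed WT livers, as its fasted WT mean of 3.97 was below the filter of 4. Without fasted WT replicate 3 it passed, at -0.15 (limma adjusted p = 0.0446). With every library given an equal total, *Atf3* and *Klf6* passed as lower, at -0.22 and -0.19 (limma adjusted p = 0.00533 and 0.0459). On that scaling 19.7% of all calls were higher, against 52.0% on the deposited scale.

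*Egr1*, a zinc finger factor induced by growth factor signalling, turned on a single library. It was 7.67, 7.65, 8.32 and 7.69 in fasted WT livers and 7.52, 8.58, 8.51 and 8.57 in fed WT livers. Fed WT replicate 1 lay with the low fasted livers and fasted WT replicate 3 lay near the high fed ones. The difference was -0.46 ± 0.24 (limma adjusted p = 0.194), and without fed WT replicate 1 it was -0.72 and passed the test (limma adjusted p = 0.00960).

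*Myc*, a growth-promoting factor, was 6.58, 6.49, 7.19 and 8.11 in fasted WT livers and 6.42, 7.22, 6.38 and 6.22 in fed WT livers. Replicate 4 of the fasted WT livers was the highest of all 8, and the groups overlapped. The difference was 0.53 ± 0.34 (limma adjusted p = 0.286). The AP-1 subunits did not pass either. *Jun* ranged between 7.70 and 8.11 in fasted WT livers and between 7.67 and 9.18 in fed WT livers, and the upper fed value belonged to replicate 3. *Fos* and *Junb* showed the same high fed WT replicate 3, at 5.04 and 9.47. The remaining members differed by between -0.10 for *Klf6* and 0.29 for *Btg2*, an antiproliferative gene, and *Ier3*, which was not tested, by 0.016.

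Loss of hepatocyte Bcl6 in the fed state was the second comparison. *Egr1*, *Klf6* and *Ier3* were higher in fed Bcl6LKO than in fed WT livers, and the other 7 members did not pass. The test thus called 3 of 10 members higher and 0 lower, where 18.3% of all tested genes were higher and 19.8% lower. The exact permutation test, at p under 0.05, gave 3 higher and 0 lower. The same 3 were the members whose groups did not overlap, which 36.7% of all tested genes shared. *Ier3* was tested there only because its fed Bcl6LKO values were high enough, and without it 2 of 9 members were higher, close to the background. The share without overlap was below the background. The median difference of the 10 members was 0.025, against -0.0074 over all tested genes.

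*Klf6*, a Krüppel-like zinc finger factor, was 8.11, 8.22, 8.20 and 8.07 in fed Bcl6LKO livers and 7.79, 7.63, 7.55 and 7.62 in fed WT livers. All 4 mutant values were above all 4 WT values. The difference was 0.50 ± 0.066, or 1.42-fold (limma adjusted p = 0.000167). *Ier3*, an early response gene linked to cell survival, was 4.38, 4.28, 4.19 and 4.41 in fed Bcl6LKO livers and 3.71, 3.83, 3.96 and 3.76 in fed WT livers. Its groups were also apart, at a difference of 0.50 ± 0.079 (limma adjusted p = 0.000641).

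*Egr1* showed the largest difference of the 10, and again fed WT replicate 1 stood apart. It was 9.53, 9.51, 9.18 and 9.37 in fed Bcl6LKO livers and 7.58, 8.82, 8.73 and 8.80 in fed WT livers. The groups did not overlap, and the difference was 0.91 ± 0.24, or 1.88-fold (limma adjusted p = 0.0121). Without fed WT replicate 1 it was 0.61 and still passed, and with a robust prior spread it missed the threshold (limma adjusted p = 0.0524). No member differed by over 2-fold, while 327 of the 12115 tested genes passed as higher and 185 as lower by over 2-fold.

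*Ier2* was 7.57, 7.41, 7.40 and 7.34 in fed Bcl6LKO livers and 7.41, 7.87, 7.65 and 7.88 in fed WT livers. The ranges met at fed WT replicate 1, and the difference was -0.27 ± 0.10 (limma adjusted p = 0.0637). Without that library it was -0.37 and passed (limma adjusted p = 0.00664). *Junb* differed by -0.37 ± 0.21 and *Jun* by -0.0028 ± 0.32, and for *Jun* fed WT replicate 3 at 9.35 was the highest of the 8. The 95% interval of *Jun* ran from -0.71 to 0.70. *Fos*, *Atf3*, *Btg2* and *Myc* differed by between -0.029 and 0.13, with limma adjusted p-values between 0.229 and 0.953.

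An equal total for every library moved the median of all genes by -0.22 in the Bcl6LKO table and left 12.4% of all calls higher, against 48.0% on the deposited scale. *Egr1*, *Klf6* and *Ier3* stayed higher on it, and *Junb* and *Ier2* passed as lower, at -0.59 and -0.49 (limma adjusted p = 0.0336 and 0.00244).

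Loss of Ppara in the fasted state was the third comparison, and the 4 members that passed were all higher in fasted PparaKO livers: *Jun*, *Klf6*, *Egr1* and *Atf3*. That is 4 of 9 tested members higher, where 11.7% of all tested genes were, and 0 lower, where 13.3% were. The exact permutation test, at p under 0.05, gave 3 higher and 0 lower. The median difference of the 9 tested members was 0.45, against 0.0055 over all tested genes. In 3 of the 9 the groups did not overlap, a share of 33.3% against 26.7% of all tested genes.

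*Jun*, the central AP-1 subunit, was 8.52, 9.33, 9.47 and 9.20 in fasted PparaKO livers and 8.08, 8.11, 8.26 and 7.85 in fasted WT livers. Every mutant library was above every WT library, with PparaKO replicate 1 nearest to them. The difference was 1.06 ± 0.17, or 2.08-fold, the 1 member here past 2-fold (limma adjusted p = 0.00132). Among all tested genes 1.35% differed by more.

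*Klf6* was 8.11, 8.41, 8.46 and 8.15 in fasted PparaKO livers and 7.74, 7.55, 7.55 and 7.55 in fasted WT livers. The groups were apart, with the closest WT value in replicate 1, and the difference was 0.69 ± 0.090 (limma adjusted p = 0.000305). *Atf3* was 4.51, 5.25, 4.93 and 4.71 in fasted PparaKO livers and 4.40, 4.35, 4.50 and 4.36 in fasted WT livers. Its groups lay close together and did not overlap, and the difference was 0.45 ± 0.13 (limma adjusted p = 0.0248). *Atf3* lost its call without PparaKO replicate 3 or without WT replicate 1, 2 or 4, at limma adjusted p-values between 0.0511 and 0.0637. The mean of *Atf3* in the same fasted WT livers was 3.97 in the fasting table, below the filter, and 4.40 here. *Atf3* may thus have entered this test only through the fasted PparaKO livers.

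*Egr1* was 8.15, 8.08, 8.93 and 8.62 in fasted PparaKO livers and 7.70, 7.67, 8.35 and 7.71 in fasted WT livers. Fasted WT replicate 3 exceeded the lower mutant libraries, so the groups overlapped. The difference of 0.59 ± 0.20 sat at the threshold (limma adjusted p = 0.0485, exact permutation p = 0.0857), and it was lost under 12 of 18 alternatives. Leaving out PparaKO replicate 3 or 4, or WT replicate 1, 2 or 4, was enough for that, at values between 0.42 and 0.54.

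*Btg2* was 8.05, 8.95, 9.01 and 8.56 in fasted PparaKO livers and 7.81, 8.23, 8.41 and 8.24 in fasted WT livers. PparaKO replicate 1 fell among the WT libraries, and the difference of 0.47 ± 0.19 did not pass (limma adjusted p = 0.0970). Without that library it was 0.67 and passed (limma adjusted p = 0.00842). *Myc* ranged between 7.30 and 8.09 in fasted PparaKO livers and between 6.75 and 8.39 in fasted WT livers, where replicate 4 was the highest of the 8. Its difference was 0.30 ± 0.31 (limma adjusted p = 0.502), and without fasted WT replicate 4 it was 0.65 and passed (limma adjusted p = 0.0412). *Fos*, *Junb* and *Ier2* differed by 0.22, 0.031 and 0.048, with limma adjusted p-values of 0.0968, 0.920 and 0.680. *Ier3*, not tested, was 3.69 ± 0.091 in fasted PparaKO livers and 3.55 ± 0.030 in fasted WT livers.

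**Figure D2:**
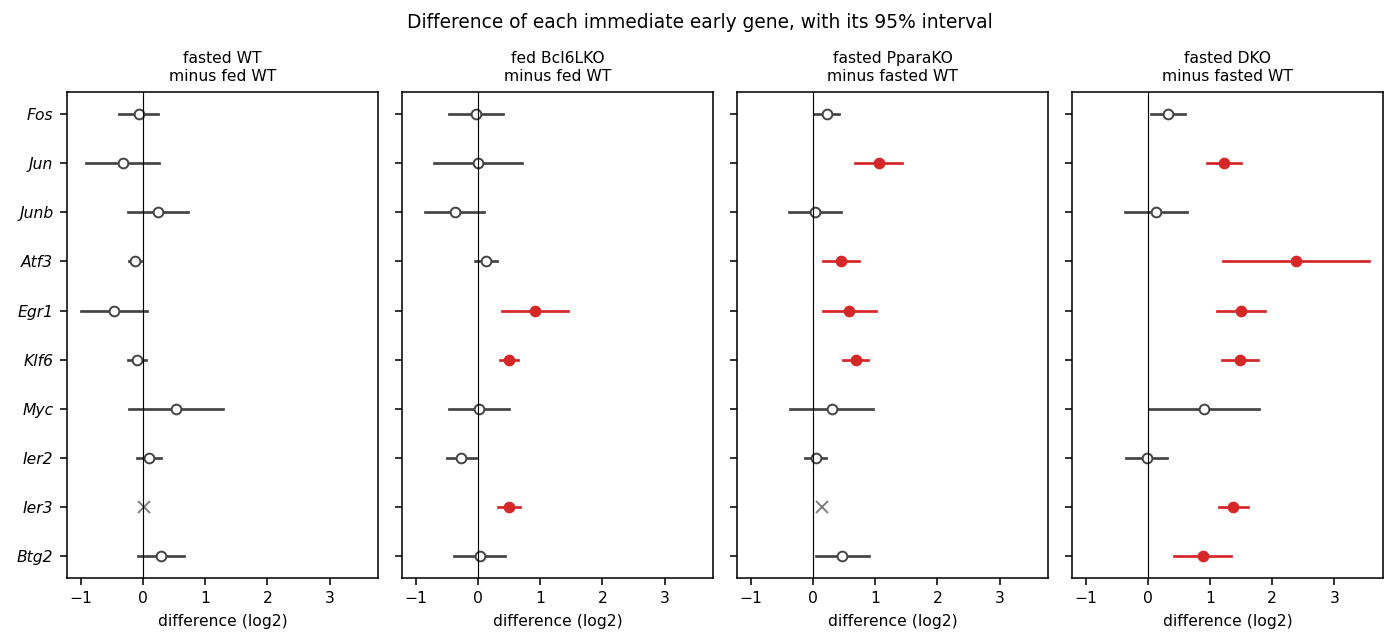
Difference of each member on the log2 scale (horizontal axis), tested minus WT or fasted minus fed, with its 95% interval from limma, in the 4 comparisons. Filled red points passed at an adjusted p under 0.05, open points did not, and crosses mark Ier3 where it was below the filter; the number of red points is 0, 3, 4 and 6 from left to right, all right of 0.

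Combined loss of Ppara and hepatocyte Bcl6 in the fasted state was the fourth comparison, and the most members passed in it. *Atf3*, *Egr1*, *Klf6*, *Ier3*, *Jun* and *Btg2* were higher in fasted DKO than in fasted WT livers, and *Fos*, *Junb*, *Myc* and *Ier2* did not pass. The test thus called 6 of 10 members higher, where 19.3% of all tested genes were, and 0 lower, where 20.8% were. *Ier3* is among the 6 and may have entered the test only through the fasted DKO livers. In the same fasted WT livers it was 3.06 and 3.55 in the fasting and PparaKO tables, below the filter, and 4.25 here. The fasted WT mean of *Atf3* was 3.97, 4.40 and 4.73 in the same order, and the same may hold for it. The exact permutation test, at p under 0.05, gave 6 higher and 0 lower. The same 6 had groups that did not overlap, against 39.1% of all tested genes. Of them 5 were over 2-fold, while 368 of the 12004 tested genes passed as higher by over 2-fold. The median difference of the 10 members was 1.06, against 0.0027 over all tested genes. All 6 stayed called under each other scaling, prior spread and pseudocount and when each library was left out in turn. With a table mean of at least 6 required, 4 were called, since *Atf3* and *Ier3* were not tested, and 5 passed with a fold over 2, without *Btg2*.

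*Klf6* was 8.71, 8.93, 9.19 and 9.35 in fasted DKO livers and 7.74, 7.50, 7.51 and 7.51 in fasted WT livers. The lowest DKO value was nearly 1 log2 unit above the highest WT value. The difference was 1.48 ± 0.13, or 2.79-fold (limma adjusted p = 1.01e-05). *Jun* was 9.005, 9.17, 9.001 and 9.46 in fasted DKO livers and 7.95, 7.99, 8.15 and 7.67 in fasted WT livers. All 4 DKO values were above all 4 WT values, and the difference was 1.22 ± 0.12, or 2.33-fold (limma adjusted p = 3.14e-05).

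*Egr1* was 9.42, 9.45, 9.49 and 9.04 in fasted DKO livers and 7.66, 7.64, 8.42 and 7.68 in fasted WT livers. The groups were apart although DKO replicate 4 was low and WT replicate 3 high for their groups. The difference was 1.50 ± 0.17, or 2.83-fold (limma adjusted p = 7.55e-05). *Ier3* was 5.45, 5.80, 5.45 and 5.78 in fasted DKO livers and 4.28, 4.26, 4.17 and 4.28 in fasted WT livers. The mutant libraries lay more than 1 log2 unit above all WT libraries, at a difference of 1.37 ± 0.11, or 2.59-fold (limma adjusted p = 4.34e-06).

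*Atf3* had the largest difference and the largest spread. It was 6.07, 6.91, 6.35 and 9.11 in fasted DKO livers and 4.71, 4.63, 4.92 and 4.65 in fasted WT livers. DKO replicate 4 stood more than 2 log2 units above the other DKO livers, and the groups were apart with or without it. The difference was 2.38 ± 0.53, or 5.20-fold (limma adjusted p = 0.00500), and without DKO replicate 4 it was 1.71 and still passed. Its pooled spread within groups was larger than that of 99.9% of all tested genes.

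*Btg2* was 8.56, 8.71, 9.31 and 9.42 in fasted DKO livers and 7.70, 8.19, 8.39 and 8.20 in fasted WT livers. The groups were apart by a narrow margin, and the difference was 0.88 ± 0.21, or 1.84-fold (limma adjusted p = 0.00646). *Myc* was 7.67, 7.91, 8.40 and 8.90 in fasted DKO livers and 6.71, 6.59, 7.45 and 8.52 in fasted WT livers. Fasted WT replicate 4 lay inside the DKO range, and the difference of 0.90 ± 0.40 did not pass (limma adjusted p = 0.0963). Without that WT library it was 1.30 and passed (limma adjusted p = 0.00792).

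*Fos* was 4.93, 4.84, 4.74 and 4.96 in fasted DKO livers and 4.19, 4.64, 4.55 and 4.78 in fasted WT livers. The ranges met, the difference was 0.33 ± 0.13 (limma adjusted p = 0.0606), and it passed without fasted WT replicate 4 (0.41, limma adjusted p = 0.0315). *Junb* and *Ier2* differed by 0.13 ± 0.23 and -0.017 ± 0.15. The 95% interval of *Ier2* ran from -0.35 to 0.31, so the data bound its change, and that of *Junb* ran from -0.37 to 0.64. With every library given an equal total, 31.8% of all calls in the DKO table were higher, against 48.1% on the deposited scale, and the same 6 members were called.

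Set side by side, the members split by which comparisons called them. The comparisons share WT libraries, the fed WT livers in the fasting and Bcl6LKO tables and the fasted WT livers in the other tables and the fasting table, so they are not independent. *Klf6* differed by 1.48 in fasted DKO, 0.69 in fasted PparaKO and 0.50 in fed Bcl6LKO livers, and *Egr1* by 1.50, 0.59 and 0.91, each from its own WT group. *Atf3* differed by 2.38, 0.45 and 0.13 and *Jun* by 1.22, 1.06 and -0.0028 in the same order, and neither passed in fed Bcl6LKO livers. *Ier3* differed by 1.37 in fasted DKO and 0.50 in fed Bcl6LKO livers and passed in both, while *Btg2* passed in fasted DKO livers only, at 0.88. *Fos*, *Junb*, *Myc* and *Ier2* passed in none of the 4. The DKO and PparaKO livers were not tested against each other, since their values are on separate scales, and no difference between comparisons was tested. The mean of *Ier3* in the same fasted WT livers was 3.06, 3.55 and 4.25 in the fasting, PparaKO and DKO tables. The sizes set side by side are therefore not on 1 scale.

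**Figure D3:**
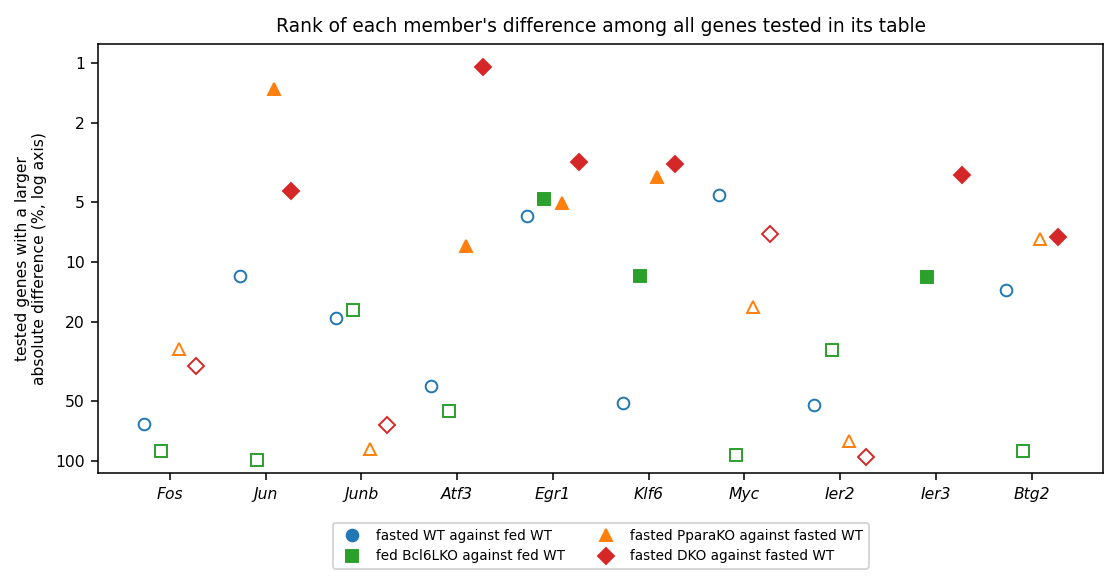
Share of all tested genes of the table with a larger absolute difference than the member (vertical axis, percent, log axis with small shares at the top), for each member and comparison; filled symbols passed at an adjusted p under 0.05. Fewer than 5% of genes exceeded Atf3 (1.04%), Egr1 (3.12%), Klf6 (3.20%), Ier3 (3.65%) and Jun (4.39%) in fasted DKO livers, and 64.7% exceeded Fos with fasting and 86.5% Junb in fasted PparaKO livers.

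Members varied among livers of 1 group more than most genes did. The pooled spread within groups was above that of 95% of all tested genes for 6 of 9 tested members in the fasting table, 6 of 10 in the Bcl6LKO table, 5 of 9 in the PparaKO table and 4 of 10 in the DKO table. *Myc* was above 98.5% of genes in each of the 4 tables and *Junb* above 97.6%. *Klf6*, which passed in all 3 knockout comparisons, was above between 37.7% and 83.2% of genes.

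Within groups, the deviations of some member pairs correlated from liver to liver. The pairs quoted here are among the highest of their table. The same was not computed for pairs of other genes, so these values do not set the members apart. After each group's mean was taken off, *Fos* and *Junb* correlated at r = 0.81 and *Fos* and *Jun* at r = 0.76 over the 8 libraries of the fasting table, *Egr1* and *Ier2* at r = 0.86 in the Bcl6LKO table, and *Ier2* and *Btg2* at r = 0.92 in the PparaKO and r = 0.89 in the DKO table. The pairs share their libraries, and no correlation was recomputed with a library left out. Of 36 pairs in the fasting and 45 in the Bcl6LKO table, 22 and 31 were positive, and of 36 in the PparaKO and 45 in the DKO table, 34 each. The median r was 0.21, 0.23, 0.44 and 0.33. *Klf6* ran against the rest in the first 2 tables, with its lowest r at -0.74, with *Btg2*, in the fasting table and -0.84, with *Ier3*, in the Bcl6LKO table.

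Some livers were the highest or the lowest of their group for most members. Fed WT replicate 3 was the highest of its group for 6 of 10 members in both tables that hold it. Fasted PparaKO replicate 3 was the highest for 7 and replicate 1 the lowest for 7. Fasted DKO replicate 4 was the highest for 7 and replicate 1 the lowest for 6. How often each library was extreme over all genes was not computed. Over all tested genes, the SD of a library's deviation from the others of its group was 0.287 and 0.245 in DKO replicates 4 and 1. It was 0.204 and 0.209 in DKO replicates 2 and 3. In PparaKO replicates 1 to 4 it was 0.191, 0.176, 0.155 and 0.150. The mean deviation of the tested members was 0.42 in DKO replicate 4 and -0.34 in DKO replicate 1, and 0.25 in PparaKO replicate 3 and -0.34 in PparaKO replicate 1.

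**Figure D4:**
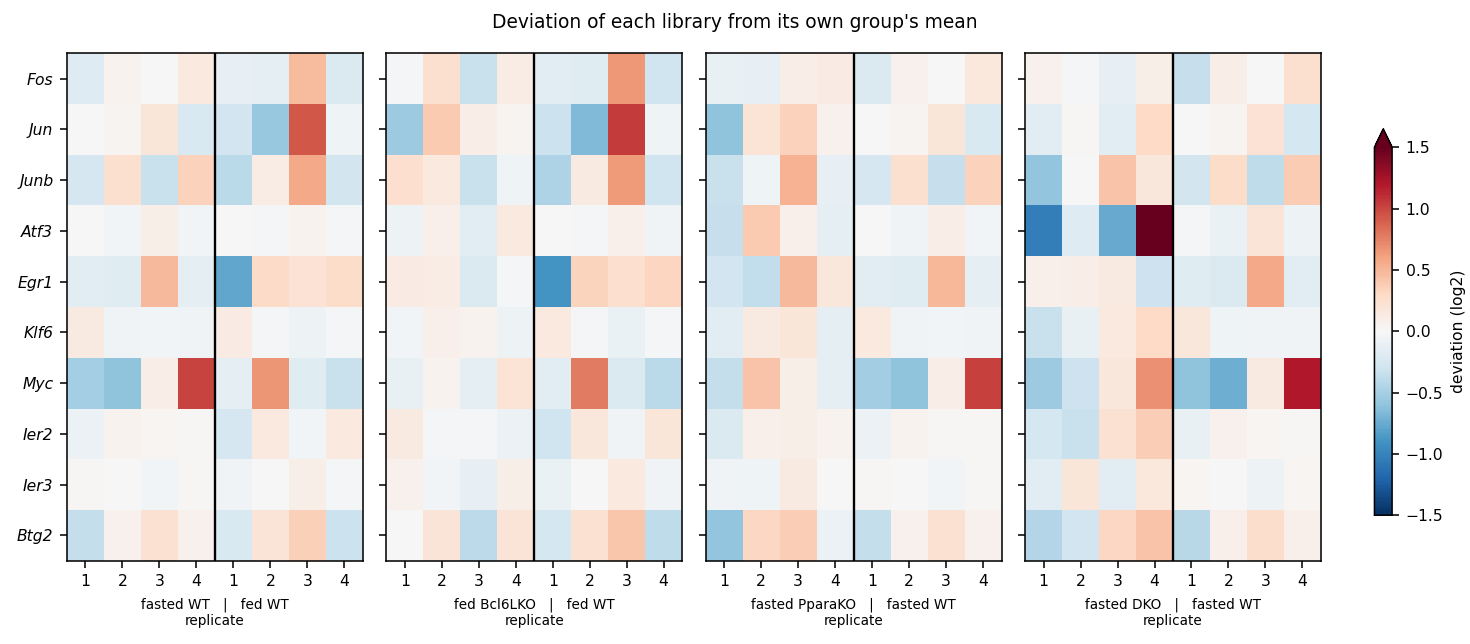
Deviation of each library from the mean of its own group (color, log2 units) for the 10 members (rows) in the 4 tables, with replicates 1 to 4 of each group along the horizontal axis. Fed WT replicate 3 is red for Fos, Jun and Junb, fed WT replicate 1 is blue for Egr1, and fasted DKO replicate 4 is red for most members but blue for Egr1; colors end at 1.5, and Atf3 in DKO replicate 4 lies beyond.

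Among the genes whose deviations were most like the members' mean, by the lowest of the 4 correlations over 8 libraries each among 11665 genes, were *Ddx24*, *Gjc3*, *Tbcel*, *Dtwd1*, *Mafk*, *Hspe1*, *Agap1*, *Dis3l2* and *Mknk2*, with lowest r between 0.75 and 0.66. Of the members themselves, *Btg2* was nearest to that mean, with a lowest r of 0.86, and it is part of it. *Klf6* was farthest, at -0.81. The 4 tables share WT libraries, so the 4 values of a gene are not independent.

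Other genes of the immediate early response did not move as a block. Over all tested genes, 19.3% were higher and 20.8% lower in fasted DKO livers, and 11.7% and 13.3% in fasted PparaKO livers. The shares were 18.3% and 19.8% in fed Bcl6LKO livers and 11.9% and 11.0% with fasting. The counts of every list and cell type below stand against these shares. Of 20 further transcription factors, 14 were tested in each table. In fasted DKO livers 2 were higher and 1 lower than in fasted WT livers. *Id1*, an inhibitor of helix-loop-helix factors, was higher by 1.79 ± 0.21 and *Jund*, another Jun family gene, by 0.57 ± 0.10 (limma adjusted p = 9.43e-05 and 0.00106), and *Bhlhe40*, a transcriptional repressor, fell by 0.50. Of the same genes 4 were higher in fasted PparaKO livers, the orphan receptor gene *Nr4a1* by 0.91, *Jund* by 0.57, *Klf4* by 0.37 and *Csrnp1* by 0.33, and *Klf10* fell by 0.76. In fed Bcl6LKO livers *Id1* and *Fosl2* were higher, by 1.98 and 0.31, and 4 were lower, *Csrnp1*, *Cebpb*, *Bhlhe40* and *Cebpd*, by between 0.71 and 0.40. With fasting *Cebpd* was higher by 0.62 and *Bhlhe40* fell by 0.44.

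Of 30 further genes for signalling and RNA decay, 26 were tested. In fasted DKO livers 6 were higher and 5 lower. *Sgk1*, a kinase gene responsive to glucocorticoids, was 12.15, 11.67, 11.59 and 12.03 in fasted DKO livers against 8.98, 8.69, 8.98 and 8.48 in fasted WT livers. The groups were far apart, by 3.08 ± 0.15 (limma adjusted p = 1.46e-07), more than for any member. *Gadd45a*, *Plk2* and *Gadd45g* were higher there by 1.58, 1.51 and 0.81, and *Phlda1*, *Zfp36l2*, *Zfp36* and *Btg1* were lower by between 1.34 and 0.41. *Zfp36* and *Zfp36l2* encode proteins that promote decay of mRNAs with AU-rich elements. The 6 higher in fasted PparaKO livers were led by *Plk3* at 1.09, *Sgk1* at 0.997 and the phosphatase gene *Dusp1* at 0.70, and 4 were lower. In fed Bcl6LKO livers 6 were higher, led by *Plk2* at 1.69, and 6 lower, led by *Zfp36* at -0.83. With fasting 4 were higher, led by *Per1* at 0.89, and *Plk2* fell by 0.33.

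Upstream kinases and factors, of which all 22 were tested, differed by less than 1 log2 unit. In fasted DKO livers 5 were higher, led by the NF-kB subunit gene *Rela* at 0.64, with *Srf* at 0.24, and 3 were lower, *Mapk9*, *Creb1* and *Mapk14*. The 5 of 22 higher lay close to the 19.3% of all tested genes. A further 5 were higher in fasted PparaKO livers, led by *Rela* at 0.37, and 3 lower. The counts higher and lower were 4 and 2 in fed Bcl6LKO livers and 2 and 5 with fasting. Among 16 MYC partners and ribosome biogenesis genes, 2 were higher in fasted DKO livers, *Cad* at 1.16 and *Nop58* at 0.79, and *Mxi1*, an antagonist of MYC, fell by 0.55. It also fell by 0.30 in fasted PparaKO livers, where no other gene of that list passed. In fed Bcl6LKO livers 0 were higher and 5 lower, led by *Nolc1* at -0.59, and with fasting 5 were higher and 1 lower.

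Cytokine and acute phase genes were counted next, where 19.3% of all tested genes were higher in fasted DKO and 11.7% in fasted PparaKO livers. Of 10 tested cytokine and acute phase genes, 8 were higher and 0 lower in fasted DKO and likewise in fasted PparaKO livers, against 1 higher and 3 lower in fed Bcl6LKO livers and 0 and 2 with fasting. *Saa2*, an acute phase gene, was 14.31, 13.63, 11.39 and 8.61 in fasted DKO livers and 7.23, 7.91, 7.61 and 7.14 in fasted WT livers. DKO replicate 4, which had the highest member levels, had the lowest *Saa2* of the DKO livers, and DKO replicate 1, which had the lowest member levels, had the highest. In fasted PparaKO livers *Saa2* was 16.48, 13.91, 11.96 and 14.20, against 8.19, 8.66, 8.46 and 8.15 in fasted WT livers, and replicates 1 and 3 were again the highest and the lowest, opposite to the members. This is a description of 4 libraries per group, and its part in the members' results was not tested.

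The integrated stress response is a program of translational control that raises *Atf3* among others. Of 11 tested genes of that list, 7 were higher and 0 lower in fasted DKO livers, led by *Ddit3* at 2.39 ± 0.48 and *Trib3* at 1.84 ± 0.38 (limma adjusted p = 0.00291 and 0.00340). *Ddit3*, a proapoptotic stress factor, was 7.36, 8.10, 8.74 and 10.32 in fasted DKO livers and 6.36, 6.31, 6.08 and 6.21 in fasted WT livers. Replicate 4 was the highest DKO library, as it was for *Atf3*. The part of this program in the members' results was not tested. In fasted PparaKO livers 4 of 11 were higher and 1 lower, with *Asns* at 1.42 and *Fgf21* at -0.98. The counts were 1 and 2 of 10 in fed Bcl6LKO livers and 4 and 0 of 11 with fasting.

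Heat shock chaperones, another stress class, were lower rather than higher. Of 9 tested, 6 were lower in fasted DKO livers, led by *Hspa1b* at -0.83, and 1, *Bag3*, was higher at 0.40. In fasted PparaKO livers 5 were lower, led by *Hsph1* at -0.76, and in fed Bcl6LKO livers 3. With fasting 1 was higher, *Hspa8* at 0.55. Of 15 glucocorticoid and cAMP targets, 5 were higher and 2 lower in fasted DKO livers, 8 and 1 in fasted PparaKO livers, 6 and 5 in fed Bcl6LKO livers and 6 and 0 with fasting. The metallothionein gene *Mt2* was among the highest in all 4, at 2.19, 1.22, 3.24 and 2.52. With fasting the median of that list was 0.40, while no member passed.

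Markers of other cell types were counted in the same way. Of all tested genes, 19.3% were higher in fasted DKO, 11.7% in fasted PparaKO and 18.3% in fed Bcl6LKO livers. Of 12 endothelial markers, 6 were higher in fasted DKO livers, where their summed level was 13.3 to 13.5 against 13.1 to 13.3 in fasted WT livers (log2 of the sum), and 8 were higher in fed Bcl6LKO livers, at 13.5 to 13.7 against 13.3 to 13.4 in fed WT livers. In fasted PparaKO livers 0 of 12 were. All 3 tested neutrophil markers of 7 were higher in fasted DKO livers, where the sum over the 7 was 6.90 to 7.49 against 6.48 to 6.76 in fasted WT livers, and 1 of 3 in fasted PparaKO livers, at 6.77 to 7.12 against 6.54 to 6.74. Of 13 macrophage markers 2 were higher in fasted DKO livers, at 12.6 to 13.2 against 12.6 to 13.0, and 3 in fasted PparaKO livers, at 13.0 to 13.4 against 12.7 to 13.1. Of 12 stellate cell markers 3 were higher in fasted DKO livers, at 13.0 to 13.3 against 12.8 to 13.1 in fasted WT livers, and 4 in fed Bcl6LKO livers, at 13.3 to 13.6 against 13.0 to 13.3 in fed WT livers. No listed marker was at 0 in all libraries of a table, and the 8 hepatocyte markers had by far the highest sums, as in liver. Their sum was 21.1 to 21.3 in fasted DKO against 20.5 to 20.7 in fasted WT livers and 21.4 to 21.5 in fed Bcl6LKO against 20.1 to 20.5 in fed WT livers, with no overlap. The median difference of the 8 markers was -0.13 and -0.14 in the same order, so the typical marker did not rise with the sum. The hepatocyte sum was 20.2 to 20.6 in fasted PparaKO against 20.5 to 20.7 in fasted WT livers, and 20.5 to 20.7 in fasted WT against 20.1 to 20.4 in fed WT livers. Among erythroid markers 6 of 7 tested were lower in fasted DKO livers, while with fasting 6 were higher and 1 lower. For hepatocytes the counts higher and lower of 8 were 3 and 2 in fasted DKO, 1 and 2 in fasted PparaKO and 3 and 3 in fed Bcl6LKO livers, and 2 and 0 with fasting. In fasted DKO and in fed Bcl6LKO livers 1 cholangiocyte marker was lower, and 1 lymphocyte marker was higher in fed Bcl6LKO livers, of the few of both that passed the filter. In fed Bcl6LKO livers 1 neutrophil and 1 macrophage marker were higher. With fasting 5 stellate cell, 1 endothelial and 1 macrophage marker were lower, and in fasted PparaKO livers 1 stellate cell marker was higher and 1 lower. The part of these cells in the members' results was not tested.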

How the data were processed

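RNA-seq of liver from the 20 libraries with values was used, with each library placed in its group by its GEO label. The authors aligned reads with STAR to mm10, counted them over exons with HOMER and normalized each pair of groups with DESeq2. They deposited 4 tables of log2 values, 1 column per library, which behave like regularised logarithms, with low genes compressed. This was judged from the values, as the transform is not given in the sources used here. The same tables hold the authors' log2 fold changes and p-values, which were not used. No library depth is given, so precision rests on 4 libraries per group.

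The deposited log2 values entered the tests without further change. Genes at 0 in every library of a table or with a mean below 4 were left out, and the test was that of limma 3.58.1 (R 4.3.3) with a mean-dependent prior variance and Benjamini-Hochberg adjustment over all tested genes (two-sided). Exact permutation tests over the 8 libraries were two-sided. The fit was tested on simulated data. All 10 members are named. From each list the named genes are up to 4 per direction with the largest differences among those that passed. Members and lists were chosen with earlier results of these data known. Sequences are from RefSeq and lengths of the longest coding transcript from GENCODE. Several lists share genes.

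Replicate numbers paired the samples only in the fasting comparison, by the data and not the labels. Deviations of same-numbered libraries from their group means correlated at r = 0.26, 0.13, 0.21 and 0.15. Alternatives were other filters, scalings, priors and pseudocounts, a replicate block, and leaving out each library. 1 gene among those most like the members is not reported here.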

Additional observations from a re-analysis of the deposited data

Results flagged for a closer look

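Of 80 groups of 4 values (10 members, 2 groups, 4 tables), 12 had a library far from the other 3 by Dixon's gap ratio, where chance gives about 1 in 20. The WT libraries recur between tables, so these are 6 library and gene combinations.

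*Egr1* accounts for 6 of the 12. Fasted WT replicate 3 was high, at 8.32 in the fasting table, 8.35 in the PparaKO table and 8.42 in the DKO table, where the nearest other fasted WT value was 7.69, 7.71 and 7.68. Fed WT replicate 1 was low, at 7.52 and 7.58 in the fasting and Bcl6LKO tables, with the nearest other fed WT value at 8.51 and 8.73. Fasted DKO replicate 4 was low, at 9.04 against 9.42 for the nearest DKO liver.

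*Klf6* in fasted WT replicate 1 was high in all 3 tables that hold it, at 7.59, 7.74 and 7.74, and its group spread was small. *Fos* in fed WT replicate 3 was high, at 5.04 and 5.24 in the fasting and Bcl6LKO tables. *Ier2* in fasted PparaKO replicate 1 was low, at 7.75 against 8.01 for the nearest PparaKO liver.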

How the results depend on the processing

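Over 674 alternative values of the members' differences, 617 kept their direction and their side of the threshold, 17 lost a call, 15 gained one and 25 changed sign. Other filters, other priors, the replicate block and the permutation test leave a difference unchanged, so under them only the call could move. The count of members higher in fasted DKO livers was 6 to 8 when each library was left out in turn, 5 with a fold over 2 and 4 with a table mean of at least 6, against 6. For fasted PparaKO livers it was 2 to 5 with a library left out, 2 without PparaKO replicate 3 or WT replicate 1 or 2. It was 1 with a fold over 2 required, against 4. With equal totals, median centring or quantile normalization it was 3. It was also 3 with no filter, a mean of at least 6, no trend in the prior spread or a robust prior spread. The pseudocount of 8 left it at 4, and the replicate block gave 5. For fed Bcl6LKO livers, 0 members were higher with a fold over 2, and 2 with a mean of at least 6 or a robust prior spread, against 3. Members lower in them numbered 2 with equal totals and 1 with quantile normalization (*Ier2*), and 0 to 1 with a library left out. Members lower with fasting numbered 2 with equal totals and 0 to 1 with a library left out. The cause was not tested.

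Every change of sign was of a difference that did not pass. In fed Bcl6LKO livers these were *Jun* at 0.0056 with quantile normalization, and with equal totals *Atf3* at -0.086, *Btg2* at -0.19 and *Myc* at -0.20, and *Myc* at -0.051 with quantile normalization. With 1 library left out, ranges in that comparison were -0.13 to 0.19 for *Fos*, -0.22 to 0.35 for *Jun*, -0.096 to 0.17 for *Btg2* and -0.12 to 0.28 for *Myc*. *Fos* ranged from -0.14 to 0.090 with fasting, *Junb* from -0.14 to 0.15 in fasted PparaKO and from -0.0096 to 0.33 in fasted DKO livers, and *Ier2* from -0.14 to 0.096 in fasted DKO livers.

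With a replicate block, *Btg2* in fasted PparaKO livers (0.47, limma adjusted p = 0.00773) and *Myc* in fasted DKO livers (0.90, limma adjusted p = 0.00282) also passed. These groups share only a number. The block changed no other call of a member, the paired fasting comparison included. Depth is unknown, the scale appears to draw low values together, and 4 libraries per group limit the precision. Small differences of *Fos* and *Ier3* may therefore go undetected.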
